A study of Mus musculus with 31 samples.

Results

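Oc90, Egfem1 and Mybpc1 are 3 mouse genes with a very large excess of RNA in the “outer ONL” at E16.5, the layer of olfactory nerve tissue furthest from the olfactory bulb. They were the rows of the count table whose Ensembl identifiers map to these symbols, 3 of 47729 genes listed, and were described across all 7 groups of nerve tissue. The values that chose them are their E16.5 levels, so contrasts of the members among or with E16.5 groups are given below as descriptions without a test, and the members were tested between earlier groups alone. The name of the group does not hold for all 3 members: the mean was highest in “outer ONL” for Oc90 alone, whereas Egfem1 and Mybpc1 had higher means in “inner ONL”, the layer closest to the bulb.

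Olfactory ensheathing cells (OECs) are the glia of the olfactory nerve. They arise from the neural crest and wrap the axons of olfactory neurons on their way from the olfactory mucosa into the olfactory nerve layer (ONL) around the olfactory bulb. Schwann cells, which are also derived from the neural crest, ensheath axons of other peripheral nerves, such as the trigeminal nerve. Both express the transcription factor gene Sox10. Oc90 encodes otoconin, the main matrix protein of otoconia, the calcium carbonate crystals of the vestibular inner ear, and its sequence is related to that of secreted phospholipases A2. Mybpc1 encodes the slow-type myosin binding protein C, a thick filament protein of the skeletal muscle sarcomere. Egfem1 encodes a protein with EGF-like repeats and an EMI domain, a cysteine-rich module found in extracellular matrix proteins.

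The 31 libraries came from pieces of nerve that the study cut by laser microdissection from cryosections of Sox10:Histone2BVenus embryos, in which a Sox10 BAC transgene labels OEC and Schwann cell nuclei with Venus. All groups therefore carry the same transgene and none was treated. At E16.5 there were 4 libraries each of olfactory nerve from the mucosal lamina propria, “outer ONL” and “inner ONL”, and 3 of trigeminal nerve branches close to the olfactory system. Per the study, no morphological boundary guided the division into inner and outer layers, and the pieces could hold tissue next to the nerve. Before E16.5 there were 16 libraries of E11.5 olfactory nerve, E13.5 olfactory nerve and E13.5 ONL. For these the selection rule follows the study's own table of group means and differs from the labels for 10 of the 16: E13.5 ONL consists of all 4 with the label E11.5 olfactory nerve and replicate 1 of those labelled E13.5 olfactory nerve, E13.5 olfactory nerve of replicates 2 to 7 of that label and replicate 1 of those labelled E13.5 ONL, and E11.5 olfactory nerve of replicates 2 to 5 labelled E13.5 ONL. Early groups are named by this rule. Values under the labels are given beside the tests and mean levels, while the order of groups, the folds of ratios and the plots by library use the rule's groups.

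Library totals ranged from 3512627 to 36705535 counted reads. Levels are given as CPM (counts per 1000000 counted reads, after TMM scaling). Sox10 had at least 231 counts in every library, with means of 646 CPM in “outer ONL”, 550 in “inner ONL”, 335 in trigeminal nerve and 126 in olfactory nerve at E16.5. Its means in the earlier groups were 142 CPM in E13.5 ONL, 57.4 in E13.5 nerve and 321 in E11.5 nerve. Summed markers of the olfactory bulb's neurons ranged from 412 to 768 CPM over the “inner ONL” libraries and from 16.4 to 172 over the “outer ONL” libraries, and summed markers of meninges and mesenchyme from 977 to 2287 and from 5891 to 11309, respectively. In bulk tissue, more cells of a type and more RNA per cell cannot be told apart.

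The members lie on 3 chromosomes of GRCm38. Oc90 (ENSMUSG00000015001) spans chr15:65876053-65912397 on the minus strand, and its longest annotated transcript has 15 exons. Mybpc1 (ENSMUSG00000020061) spans chr10:88518279-88605152 on the minus strand, with 29 exons. Egfem1 (ENSMUSG00000063600) spans chr3:29082023-29691209 on the plus strand, where 12 exons spread over 609187 bp. None of their exons matched another gene of the count table over at least 75 bp at 95% identity or more. The exons of Mybpc1 share 252 bp with Gm48752, a gene model on the opposite strand that is not a row of the table.

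RefSeq promoter windows, from 250 bases before to 50 bases after the start of transcription, were matched for Egfem1 (2 starts) and Mybpc1 (1 start). One window of each gene is shown because the RNA of the pair moved together across groups. Both strands were searched for 5 motifs spelled out here, and capitals mark matches to the E-box CANNTG, which do not overlap matches to the other 4. The windows are chr3:29081537-29081836 on the plus strand for Egfem1 and chr10:88605103-88605402 on the minus strand for Mybpc1, both in GRCm38.p6 and written 5′ to 3′.
Egfem1: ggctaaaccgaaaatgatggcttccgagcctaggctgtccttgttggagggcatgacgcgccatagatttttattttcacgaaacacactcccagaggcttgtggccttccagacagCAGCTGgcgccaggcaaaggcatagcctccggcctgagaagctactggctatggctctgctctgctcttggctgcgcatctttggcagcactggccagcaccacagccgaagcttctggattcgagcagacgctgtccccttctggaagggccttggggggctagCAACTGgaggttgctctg
Mybpc1: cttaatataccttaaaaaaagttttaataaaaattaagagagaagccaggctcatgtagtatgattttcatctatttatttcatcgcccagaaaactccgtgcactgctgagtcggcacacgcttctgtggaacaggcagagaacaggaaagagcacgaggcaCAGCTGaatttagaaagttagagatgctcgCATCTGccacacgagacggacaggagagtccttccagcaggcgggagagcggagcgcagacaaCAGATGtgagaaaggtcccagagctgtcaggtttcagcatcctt
The window of Egfem1 held 2 E-boxes and that of Mybpc1 held 3, and 72.3% of 32851 RefSeq promoter windows held at least 1. TTGGC, the core of nuclear factor I sites, matched 2 times in the window of Egfem1 shown and not in that of Mybpc1, and 46.7% of all windows held a match. Its other start, chr3:29082281-29082580, held 1 TTGGC and no E-box. None of the 3 windows held ACAAAG, a core read by SOX proteins (18.7% of windows), TGGGAA, a core read by RBPJ (25.6%), or TATAAA (13.6%). These matches describe the letters of the windows and nothing of what binds there.

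Oc90 was the member with the most uneven level among “outer ONL” libraries. Its counts there were 1768, 553, 789 and 454, which correspond to 136, 34.7, 56.1 and 27.7 CPM in replicates 1 to 4 (mean 63.6 ± 49.6, SD, n = 4). In “inner ONL” the levels were 29.7, 14.4, 20.0 and 25.2 CPM (22.3 ± 6.57), so that replicate 4 of the outer layer lay below replicate 1 of the inner layer and the groups overlapped. The olfactory nerve had 3.03, 1.79, 2.54 and 0.997 CPM (2.09 ± 0.888). All 4 ONL libraries of either layer lay above every nerve library.

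Replicate 1 set much of the Oc90 mean in “outer ONL”. Without it the mean was 39.5 ± 14.8 CPM (n = 3). The same library had the highest Egfem1 and Mybpc1 levels of the outer layer, 68.5 and 633 CPM. Its summed glial markers (32885 CPM, against 18688 to 24130 in the other 3) and summed ONL markers of OECs (6973 CPM, against 4142 to 4443) were the highest of the layer as well, while its summed bulb neuron markers (16.4 CPM, against 47.3 to 172) were the lowest. Sox10 in this library, 624 CPM, lay among the others (572 to 712 CPM). The part of these differences in the Oc90 level was not tested.

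In trigeminal nerve, Oc90 was at the floor of detection. Its counts were 0, 1 and 0 in libraries of about the deepest sequencing of the series. A count of 0 allows up to 0.0923 CPM in replicate 1 and 0.0993 CPM in replicate 3, taking 3 counts of the unscaled library total as the limit. Pooled over libraries, 3564 counts in “outer ONL” against 1 in trigeminal nerve gave a ratio of 5399 per counted read, with a 95% exact counting interval of 968 to 213295. The 135 counts of olfactory nerve gave a ratio of 203 (35.8 to 8080) over trigeminal nerve. These intervals cover counting error only, and PCR copies are not independent molecules.

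Egfem1 was almost confined to the ONL among the E16.5 groups in counted reads. Its “outer ONL” levels were 68.5, 37.4, 55.6 and 42.2 CPM (50.9 ± 14.0, n = 4) and its “inner ONL” levels 82.2, 47.4, 69.2 and 68.9 CPM (66.9 ± 14.4). In olfactory nerve the counts were 0, 12, 4 and 1, or 0, 0.743, 0.260 and 0.0554 CPM (0.265 ± 0.338). The trigeminal nerve had 16, 8 and 12 counts, or 0.577, 0.289 and 0.441 CPM (0.436 ± 0.144). The layers overlapped with each other, and neither overlapped with a nerve. The 0 counts of replicate 1 of the olfactory nerve allow up to 0.184 CPM.

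Mybpc1 was the most abundant of the 3 per length of transcript. Its levels were 633, 401, 401 and 522 CPM in “outer ONL” (489 ± 111, n = 4) and 943, 624, 685 and 792 CPM in “inner ONL” (761 ± 140). The highest outer library, replicate 1, lay just above the lowest inner library, replicate 2, so the layers overlapped. Olfactory nerve had 2.23, 5.88, 2.08 and 6.76 CPM (4.24 ± 2.43) and trigeminal nerve 2.96, 6.85 and 6.76 CPM (5.52 ± 2.22), and the ranges of the nerves overlapped. Divided by exon length (4.527 kb for Mybpc1, 1.912 kb for Oc90 and 4.177 kb for Egfem1), the mean levels in “outer ONL” were 108 ± 24.6 CPM per kb for Mybpc1, 33.2 ± 25.9 for Oc90 and 12.2 ± 3.36 for Egfem1. On this scale Mybpc1 exceeded both others in every “outer ONL” library, while the ranges of Oc90 (14.5 to 70.9) and Egfem1 (8.95 to 16.4) overlapped.

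**Figure D1:**
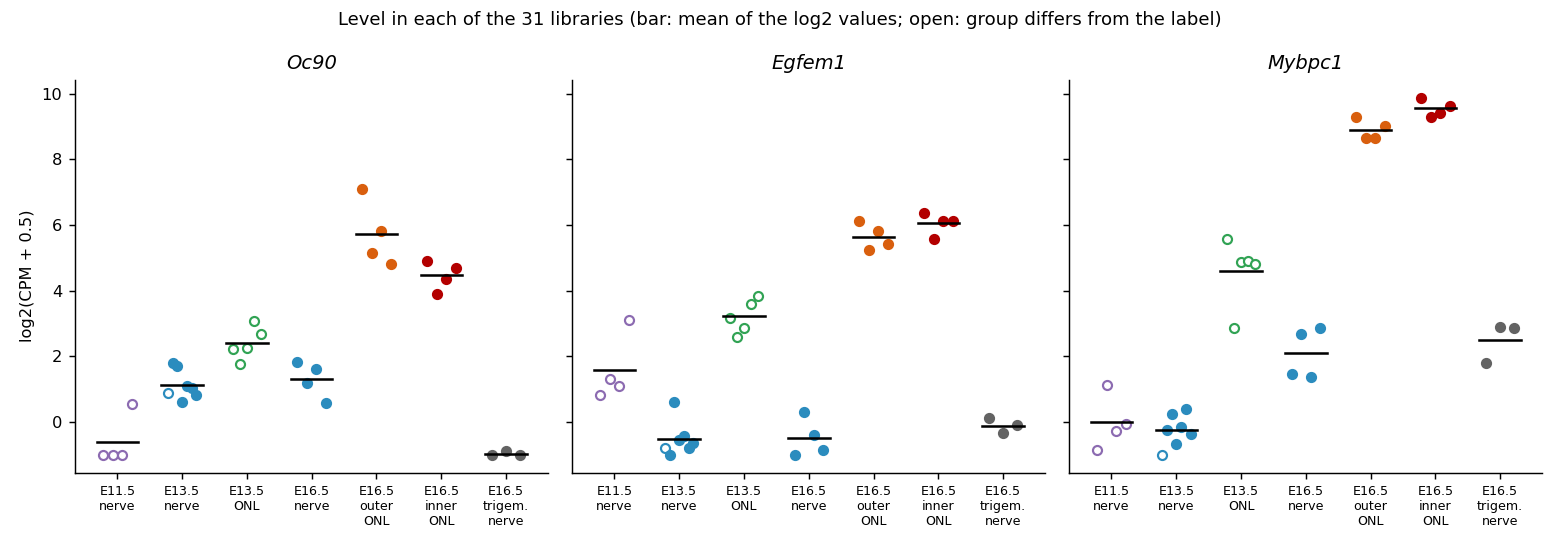
Level of each member in the 31 libraries, as log2(CPM + 0.5), by group under the selection rule. Each point is a library, bars are means of the log2 values, and open points mark the 10 early libraries whose label names another group. The 4 “outer ONL” and 4 “inner ONL” libraries lie above every library of olfactory and trigeminal nerve for all 3 genes. The E13.5 ONL mean lies between those of the E16.5 layers and nerves, while its lowest library lies below the highest E16.5 nerve library for Oc90 (2.88 against 3.03 CPM) and Mybpc1 (6.84 against 6.85 CPM) and below the highest E11.5 nerve library for Egfem1 (5.47 against 8.08 CPM).

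As fold changes from 1 edgeR fit of all libraries, the excess of “outer ONL” over olfactory nerve was 4.93 on the log2 scale for Oc90 (SE 0.70), 7.57 for Egfem1 (SE 0.70) and 6.84 for Mybpc1 (SE 0.58). Without replicate 2 of olfactory nerve, the value of Egfem1 was 8.88. For all 3 members the “outer ONL” libraries lay above all olfactory nerve libraries, as did those of 11.4% of the 19332 genes tested. They also lay above all trigeminal nerve libraries, as did 16.3% of genes. Since these contrasts chose the members, nothing is read from either count. Among 10180 genes with a mean of at least 10 CPM in “outer ONL”, Egfem1 ranked 1, Mybpc1 3 and Oc90 23 by this fold change. Rnase12 (log2 fold change 7.33) ranked 2, and Zpld1 (6.28), Rhcg (6.17) and Slc38a5 (6.16) followed Mybpc1. Around Oc90 ranked Gm35040 (5.02), Slc22a6 (4.98) and Slc22a8 (4.97) before it, and Ube2ql1 (4.88), Slc6a13 (4.80) and Prss56 (4.76) after it. Slc22a6, Slc22a8 and Slc6a13 encode solute carriers of organic anions and of GABA and related compounds.

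Over trigeminal nerve the log2 fold changes in “outer ONL” were 6.85 (SE 0.73) for Egfem1 and 6.47 (SE 0.64) for Mybpc1, which ranked 37 and 42. The fitted value of Oc90 depends on the prior count and is replaced by the pooled ratio above. In olfactory over trigeminal nerve, Egfem1 differed by -0.73 (SE 0.81) and Mybpc1 by -0.37 (SE 0.52), less than the spread between libraries for both. Oc90 had from 0.997 to 3.03 CPM in olfactory nerve and at most 1 count in any trigeminal nerve library.

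Between the layers the estimates of the members differed in sign, though that of Egfem1 was smaller than its SE. Per the study, the pieces of these layers did not separate OECs of the inner ONL from those of the outer ONL. The log2 fold change of “outer ONL” over “inner ONL” was 1.51 (SE 0.59) for Oc90, -0.39 (SE 0.47) for Egfem1 and -0.64 (SE 0.44) for Mybpc1, and each had overlapping libraries. At every shared replicate number, Oc90 was higher in “outer ONL” and Egfem1 and Mybpc1 in “inner ONL”. Whether these numbers mark pairs is not settled, and the share of all genes was not counted, so nothing is read from it. Leaving out replicate 1 of the outer layer brought the value of Oc90 to 0.85 (SE 0.62). With “inner ONL” in place of “outer ONL”, the excess over olfactory nerve was 3.42 (SE 0.66) for Oc90, 7.97 (SE 0.71) for Egfem1 and 7.48 (SE 0.59) for Mybpc1. Egfem1 then ranked 1 again, Mybpc1 4 and Oc90 249 among 10314 genes with at least 10 CPM in “inner ONL”. Each member had an excess over olfactory nerve in both layers. The marker sums of bulb neurons and of meninges, given above, also differed between the layers, and their part in these values was not tested.

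The summed glial markers were higher in the ONL than in the nerves at E16.5, from 18688 to 32885 CPM over “outer ONL” libraries against 1674 to 3927 over olfactory nerve libraries, so the members were also set against Sox10 in the same library. Sox10 itself was 5.13-fold higher in “outer ONL” than in olfactory nerve. The ratio of Oc90 to Sox10 was 0.217, 0.0515, 0.0981 and 0.0389 in “outer ONL” and 0.0311, 0.00998, 0.0208 and 0.00960 in olfactory nerve. The groups did not overlap, and the mean ratio was 5.68-fold higher in “outer ONL”, against 30.4-fold for the mean CPM.

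The folds of Egfem1 and Mybpc1 were also smaller on this scale than in CPM. The ratio of Egfem1 to Sox10 ranged from 0.0554 to 0.110 in “outer ONL” and from 0 to 0.00413 in olfactory nerve, 47.3-fold apart in their means against 193-fold in CPM. For Mybpc1 it ranged from 0.595 to 1.01 and from 0.0171 to 0.0651, 22.1-fold apart against 115-fold. Taken against the sum of 8 glial markers instead, most of which is Fabp7, the folds of the means were 2.67 for Oc90, 23.8 for Egfem1 and 10.7 for Mybpc1. In “inner ONL”, the ratio of Oc90 to Sox10 (0.0297 to 0.0499) overlapped with that of olfactory nerve, 2.29-fold apart in the means, and it was 1.08-fold apart against the glial sum. The ratio of Mybpc1 to Sox10 was higher in “inner ONL”, 1.01 to 1.72, than in “outer ONL”.

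**Figure D2:**
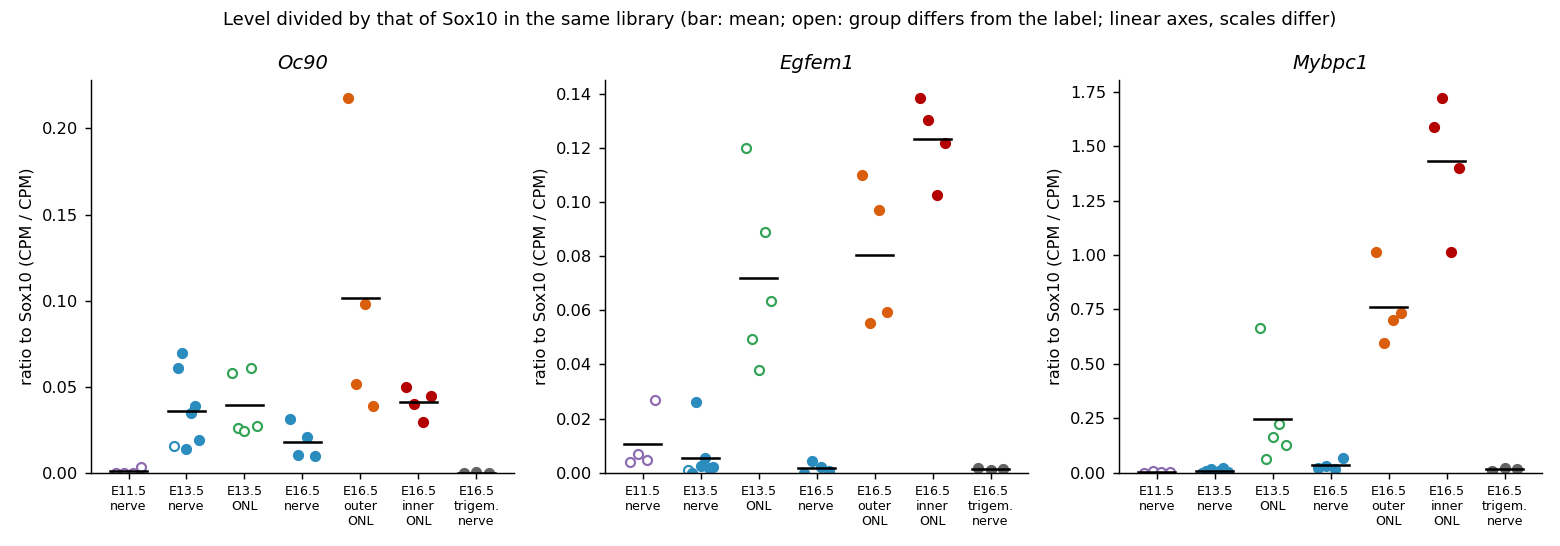
Level of each member divided by that of Sox10 in the same library, on linear axes whose scales differ between genes. Each point is a library, bars are group means, and open points are libraries whose label names another group. The ratio of Oc90 in E13.5 ONL overlaps with that in E13.5 nerve, whereas those of Egfem1 (0.0379 to 0.120 against 0 to 0.0260) and Mybpc1 (0.0619 to 0.663 against 0 to 0.0204) do not.

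Comparisons before E16.5 asked whether the members already differed between the ONL and the mucosal nerve at E13.5, and between the nerves of E11.5 and E13.5. Per the study, several early libraries came from the same embryo, and the labels do not say which, so the p-values below, which treat libraries as independent, are too small. All 3 members rose in E13.5 ONL over E13.5 nerve under the selection rule's grouping, where edgeR's quasi-likelihood test called 15.4% of genes higher and 31.5% in either direction. All 3 also rose over E11.5 nerve, where 20.0% of genes were called higher and 36.4% in either direction. With the libraries grouped by label, no member was called higher in E13.5 ONL in either comparison, and Oc90 and Mybpc1 were called lower in both. Under the rule, 8 of 9 ONL genes of OECs were higher and 1 lower in E13.5 ONL over E13.5 nerve (median 5.17). Npy averaged 333 CPM in E13.5 ONL, 1.75 in E13.5 nerve and 0.946 in E11.5 nerve. Per the study, in situ hybridization showed Npy in early OECs of the ONL and not in early mucosal OECs, so the rule places Npy where the study saw it.

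Oc90 had 4.15, 2.88, 4.29, 7.99 and 5.95 CPM in E13.5 ONL (5.05 ± 1.97, n = 5), and from 1.01 to 2.98 CPM in E13.5 nerve (median 1.56, mean 1.79 ± 0.771, n = 7). The lowest ONL library lay below the highest nerve library, so the groups overlapped slightly. The log2 fold change was 1.53 (SE 0.54, edgeR adjusted p = 0.0283). The call was lost with DESeq2 (adjusted p = 0.0689) and on leaving out the library labelled E11.5 olfactory nerve replicate 4 (edgeR, 1.31, adjusted p = 0.0848) or replicate 1, 4 or 7 of those labelled E13.5 olfactory nerve (1.41 to 1.46, adjusted p = 0.0521 to 0.0602). By label it was -2.64 (SE 0.76, edgeR adjusted p = 0.0176). Relative to Sox10 the mean ratio of Oc90 was 1.09-fold higher in E13.5 ONL than in E13.5 nerve with overlapping libraries, and against the glial sum 0.322-fold, lower in E13.5 ONL. By label the mean ratios to Sox10 were 0.00376 in E13.5 ONL and 0.0377 in E13.5 nerve. The summed glial markers ranged from 4311 to 6742 CPM in E13.5 ONL and from 506 to 1081 in E13.5 nerve, and their part in the rise of Oc90 CPM was not tested beyond these ratios.

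Egfem1 had 8.58, 5.47, 6.76, 11.6 and 13.9 CPM in E13.5 ONL (9.28 ± 3.48), and from 0 to 1.04 in E13.5 nerve (median 0.140, mean 0.253 ± 0.356). Mybpc1 had 47.3, 6.84, 29.1, 29.5 and 27.4 CPM in E13.5 ONL (28.0 ± 14.4) and from 0 to 0.815 in E13.5 nerve (median 0.351, mean 0.381 ± 0.291). Neither gene overlapped between the groups, as was the case in this direction for 9.90% of genes tested. Egfem1 rose by 5.61 on the log2 scale (SE 0.58, edgeR adjusted p = 5.57e-09) and Mybpc1 by 6.25 (SE 0.54, edgeR adjusted p = 2.08e-10). By label the values were 0.14 (SE 0.86, edgeR adjusted p = 0.930) for Egfem1 and -3.05 (SE 0.99, edgeR adjusted p = 0.0327) for Mybpc1, with 17.7% of genes called and 8.81% called lower. Against Sox10 the mean ratios remained 13.0-fold and 29.1-fold apart, and against the glial sum 4.21-fold and 8.25-fold. By label the mean ratios to Sox10 in E13.5 ONL and E13.5 nerve were 0.00866 and 0.0145 for Egfem1 and 0.00169 and 0.0264 for Mybpc1, lower in E13.5 ONL. Summed bulb neuron markers were also higher in E13.5 ONL, 584 to 725 CPM against 94.6 to 127, and their part was not tested.

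In E11.5 nerve, Oc90 had 0 counts in 3 of 4 libraries and 30 counts (0.970 CPM) in the library labelled E13.5 ONL replicate 5. The 0 counts allow at most 0.0817 to 0.124 CPM. Egfem1 had 1.27, 1.98, 1.66 and 8.08 CPM (3.25 ± 3.24, n = 4), with the same library the highest. Mybpc1 had 0.0530, 1.68, 0.332 and 0.453 CPM (0.630 ± 0.722). Sox10 was at 287 to 358 CPM in these libraries, above E13.5 ONL, whereas the summed glial markers ranged from 543 to 970 CPM, below the 4311 to 6742 of E13.5 ONL. Their part in the member levels was not tested.

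Against these values, E13.5 ONL was higher by 4.38 on the log2 scale for Oc90 (SE 0.74, edgeR adjusted p = 2.76e-05), by 5.39 for Mybpc1 (SE 0.57, edgeR adjusted p = 1.72e-08) and by 1.52 for Egfem1 (SE 0.49, edgeR adjusted p = 0.0142). Against the glial sum the folds of the means were 2.51 for Oc90 (20.8 in CPM), 4.75 for Mybpc1 (44.4 in CPM) and 0.349 for Egfem1 (2.85 in CPM), so the direction turned for Egfem1. Against Sox10 they were 48.5, 117 and 6.81, respectively. The glial sum was mostly Fabp7 in E13.5 ONL (mean 5012 CPM), whereas its most abundant gene in E11.5 nerve was Sox10 (321 CPM). Oc90 and Mybpc1 did not overlap between the groups, as held for 13.0% of genes in this direction, while Egfem1 overlapped through the one high E11.5 library. The Egfem1 call was lost on leaving out replicate 2 or 4 of the libraries labelled E13.5 ONL (1.25 and 1.31, edgeR adjusted p = 0.0512 and 0.0538) and in a fit of these groups alone (1.50, edgeR adjusted p = 0.0624). Without the high library the log2 fold change was 2.48 for Egfem1 and 9.47 for Oc90, the latter against counts of 0 alone and therefore dependent on the prior count. By label the values were -3.60 for Oc90 (SE 0.83, edgeR adjusted p = 0.00203), -5.59 for Mybpc1 (SE 1.10, edgeR adjusted p = 0.000508) and -1.59 for Egfem1 (SE 0.98, edgeR adjusted p = 0.244), with 26.0% of genes called and 12.8% called lower.

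Between the nerves of the earlier stages the members went different ways in CPM. Oc90 rose from E11.5 to E13.5 by 2.85 (SE 0.71, edgeR adjusted p = 0.00224) and Egfem1 fell by 4.09 (SE 0.61, edgeR adjusted p = 4.53e-06), where 20.2% of genes were called higher and 16.4% lower at E13.5 (36.6% in either direction). Mybpc1 differed by -0.86 (SE 0.71, edgeR adjusted p = 0.369), a difference within its spread that had the opposite sign without the library labelled E13.5 ONL replicate 3 (0.41, edgeR adjusted p = 0.727). The libraries of Oc90 and of Egfem1 did not overlap between these stages, as held for 12.0% of genes upward and 9.18% downward. Sox10 fell from 321 to 57.4 CPM, while the summed glial markers overlapped (543 to 970 and 506 to 1081 CPM). Relative to Sox10, the mean ratio of Egfem1 was 0.0106 at E11.5 and 0.00553 at E13.5, with overlapping libraries. That of Mybpc1 was 0.00212 and 0.00851, also overlapping, and that of Oc90 0.000810 and 0.0360. The part of glial cells in these changes was not tested. In a fit of these groups alone the call of Oc90 was lost (2.86, edgeR adjusted p = 0.0599). Leaving out the high E11.5 library gave 7.94 for Oc90, again against counts of 0 alone, and -3.14 for Egfem1. By label the values were -0.96 (SE 0.68, edgeR adjusted p = 0.373) for Oc90, -1.73 (SE 0.90, edgeR adjusted p = 0.199) for Egfem1 and -2.54 (SE 0.84, edgeR adjusted p = 0.0350) for Mybpc1, with 17.5% of genes called and 8.18% called lower.

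**Figure D3:**
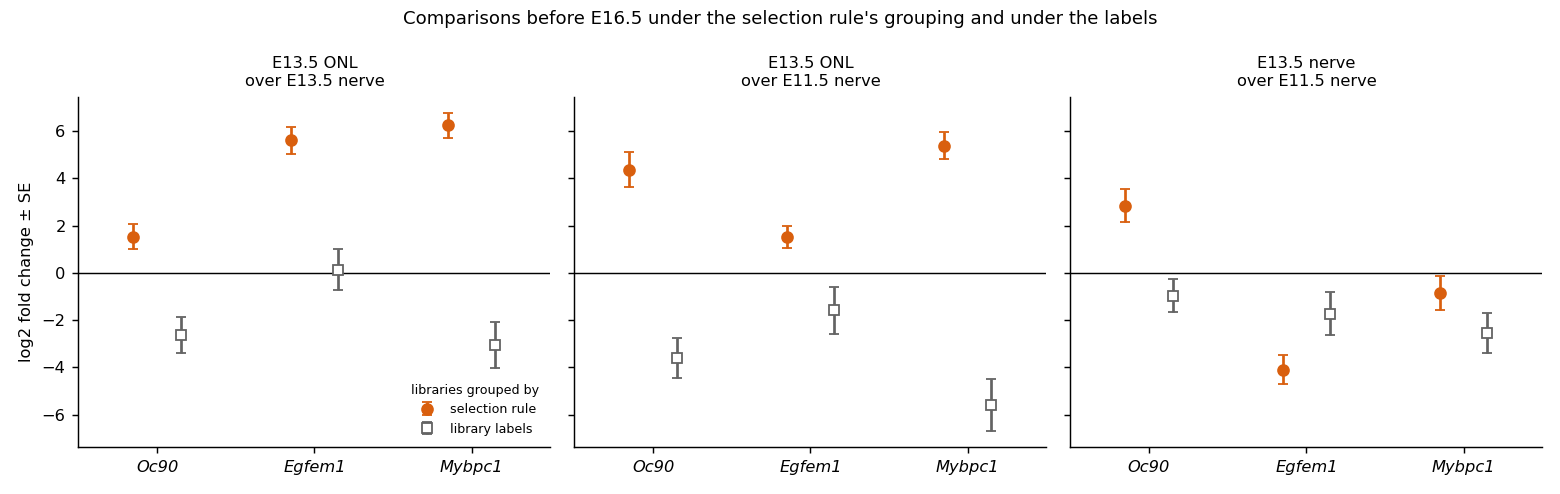
Log2 fold changes (± SE) of the 3 members in the comparisons before E16.5, with the libraries grouped by the selection rule (filled circles) and by their labels (open squares). The values of E13.5 ONL over E11.5 nerve are all above 0 under the rule (1.52 to 5.39) and all below 0 under the labels (-5.59 to -1.59).

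From E13.5 to E16.5 the CPM levels in the ONL increased for all 3 members, and Sox10 rose as well, from 142 CPM to 646 in “outer ONL”. Relative to Sox10, the mean ratio of Egfem1 was 0.0720 in E13.5 ONL and 0.0804 in “outer ONL”. That of Oc90 was 0.0393 and 0.101 and that of Mybpc1 0.248 and 0.761, in the same order. The libraries overlapped on this scale for each member, and the part of glial cells in the rise was not tested. Described without a test, “outer ONL” exceeded E13.5 ONL by 3.64 (SE 0.60) on the log2 scale for Oc90, 2.45 (SE 0.47) for Egfem1 and 4.16 (SE 0.46) for Mybpc1. In the mucosal nerve, E16.5 exceeded E13.5 by 0.24 (SE 0.59) for Oc90, 0.49 (SE 0.87) for Egfem1 and 3.56 (SE 0.60) for Mybpc1. Of these nerve values, that of Mybpc1 alone exceeded its SE by far, and its E16.5 level stayed under 7 CPM. By label the mean levels did not differ in this way, with Mybpc1 at 4.30 ± 10.2 CPM in E13.5 nerve (median 0.406, n = 7) against 4.24 ± 2.43 in E16.5 nerve. In E13.5 ONL by label the means were 0.459 CPM for Oc90, 2.62 for Egfem1 and 0.504 for Mybpc1, also below those of “outer ONL”.

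Ordered by mean level, Oc90 ran from “outer ONL” through “inner ONL”, E13.5 ONL, E16.5 nerve, E13.5 nerve and E11.5 nerve to trigeminal nerve. Of its neighbours in this order, “inner ONL” and E13.5 ONL, and E13.5 nerve and E11.5 nerve, did not overlap, and the other 4 neighbouring pairs did. Egfem1 ran from “inner ONL” through “outer ONL”, E13.5 ONL, E11.5 nerve, trigeminal nerve and E16.5 nerve to E13.5 nerve, with no overlap between “outer ONL” and E13.5 ONL or between E11.5 nerve and trigeminal nerve. Mybpc1 ran from “inner ONL” through “outer ONL”, E13.5 ONL, trigeminal nerve, E16.5 nerve and E11.5 nerve to E13.5 nerve. Its neighbours did not overlap between “outer ONL” and E13.5 ONL or between E16.5 nerve and E11.5 nerve. For neighbouring pairs that hold an E16.5 group, the share of all genes without overlap was not counted. Nothing is read from these overlaps. By label, the means in E11.5 nerve, E13.5 nerve and E13.5 ONL were 4.83, 2.45 and 0.459 CPM for Oc90. They were 8.11, 2.23 and 2.62 CPM for Egfem1 and 28.2, 4.30 and 0.504 CPM for Mybpc1, so the early groups took other places. Under either grouping the E16.5 ONL groups stood at the top of each order and the trigeminal nerve stood last for Oc90 alone.

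Across libraries the members were similar to each other mainly through the contrast between ONL and nerve. Over all 31 libraries, Pearson's r of log2(CPM + 0.5) was 0.90 between Egfem1 and Mybpc1, 0.84 between Oc90 and Mybpc1 and 0.82 between Oc90 and Egfem1 (Spearman's rho 0.79, 0.76 and 0.65). Within the 8 ONL libraries of E16.5, r was 0.79 between Egfem1 and Mybpc1, -0.24 between Oc90 and Mybpc1 and 0.18 between Oc90 and Egfem1. These 8 libraries pool layers between which the estimates of the members differed in sign, with overlapping libraries. Taken as deviations from the group means over all 31 libraries, r was 0.63 between Oc90 and Egfem1, 0.31 between Egfem1 and Mybpc1 and 0.16 between Oc90 and Mybpc1 (rho 0.60, 0.32 and 0.18). Which pair was most alike thus differed between these ways of pooling. The libraries fall into groups and share total counts with these levels, so the coefficients are descriptive.

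Among 10172 tested genes with an annotated symbol and at least 10 CPM in “outer ONL”, those most like Oc90 over the 31 libraries were Lypd6 (r = 0.94), Frzb (0.94), Adgrg1 (0.93), Phldb2 (0.93) and Htr7 (0.93). Lypd6 and Frzb encode modulators of Wnt signalling, Adgrg1 an adhesion G protein-coupled receptor and Htr7 a serotonin receptor. Htr7 was, like Oc90, near the floor in trigeminal nerve (mean 0.108 CPM) and higher in “outer ONL” (29.3 CPM) than in “inner ONL” (15.8 CPM). Among those most like Egfem1 were Myoz1 (0.95), Slc38a5 (0.95), Lrig1 (0.95) and Lix1 (0.94). Myoz1, like Mybpc1, encodes a protein of the sarcomere, in its case of the Z-disc, and had 53.0 CPM in “outer ONL”, 39.3 in “inner ONL” and 1.53 in olfactory nerve. Most like Mybpc1 were Slc13a3 (0.98), Psmb11 (0.97), Rnase12 (0.96), Lrig1 (0.96) and Ptprz1 (0.96). Slc13a3, a dicarboxylate transporter gene, had 171 CPM in “outer ONL”, 204 in “inner ONL” and 2.86 in olfactory nerve, and 0 in E11.5 nerve. Psmb11, known as the proteasome subunit of thymic cortical epithelium, had 78.5, 72.1 and 1.82 CPM in the E16.5 groups in the same order.

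Levels of the genes next to the members varied less between groups or were low. Efr3a, on the opposite strand, ends 2237 bp from Oc90 and had mean levels from 45.3 to 110 CPM over the 7 groups. Hhla1, 10046 bp away on the other side, had at most 20 counts in any library. Beside Mybpc1, Chpt1 had means of 23.3 CPM in “outer ONL”, 20.7 in “inner ONL”, 11.1 in olfactory nerve and 15.9 in trigeminal nerve, and its libraries of both layers lay above those of olfactory nerve, as for Mybpc1. Spic had 1.02 CPM in “outer ONL”, 0.592 in olfactory nerve and 4.23 in trigeminal nerve. Beside Egfem1, Gm1527 had no count in any library, and Mecom, which encodes a zinc finger transcription factor, was lower in “outer ONL” (10.8 CPM) than in olfactory nerve (27.2 CPM).

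Inside Egfem1, on the same strand, lie Gm37965 and Gm38029, gene models that the annotation holds as still to be tested experimentally. Gm37965 had 32, 57, 14 and 73 counts in “outer ONL” (mean 2.87 CPM), a mean of 4.02 CPM in “inner ONL” and 1 count in all 4 olfactory nerve libraries. Gm38029 had 17, 20, 15 and 24 counts in “outer ONL” and none in olfactory or trigeminal nerve. Reads of these models and of Egfem1 come from the same stretch and strand, and whether they belong to separate RNAs was not tested. The microRNA genes Mir551b and Mir21b within Egfem1 had at most 1 count in any library.

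Genes that work with the members elsewhere were examined from lists, to describe whether the members were accompanied by their usual partners. Of 16 skeletal muscle genes tested, none was higher in “outer ONL” than in olfactory nerve and 1 was lower, Tnnt1 (log2 fold change -1.18, edgeR adjusted p = 0.0132). The median log2 fold change of the 16 was 0.03, against 0.01 over all genes, and 10.2% of all genes were called higher and 11.8% lower. Summed over all 18 listed muscle genes, the level was 16.8 to 29.6 CPM in “outer ONL”, 20.9 to 29.9 in olfactory nerve and 285 to 413 in trigeminal nerve. Mean Mybpc1 was 5.52 CPM in trigeminal nerve and 489 CPM in “outer ONL”. The part of muscle RNA in these levels was not tested. Of the slow muscle genes, 2 of 4 tested were lower in “outer ONL”, Myl2 (-2.16, edgeR adjusted p = 0.0420) and Tnnt1, and none was higher. No other tested member of the myosin binding protein family passed the test (0 of 3), and the most abundant, Mybphl, had a mean of 0.700 CPM in “outer ONL”.

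Genes of otoconia and of the membranes that hold them, with which Oc90 works in the inner ear, gave a mixed picture. Of 7 tested, 3 rose and 1 fell, with a median of 1.25. Nox3, which encodes an NADPH oxidase needed for otoconia, rose by 5.10 (edgeR adjusted p = 0.00367), Atp2b2, a plasma membrane calcium pump gene, by 2.57 (edgeR adjusted p = 0.0196) and Sparcl1 by 0.94 (edgeR adjusted p = 0.00357). Sparc, the most abundant of the list, fell by 0.58 (edgeR adjusted p = 0.00362). Of the 12 listed genes, 4 had at most 3 counts in each “outer ONL” library. No secreted phospholipase A2 gene passed the test (0 of 4, median -0.07), and Pla2g12a was the most abundant at 9.56 CPM. Among genes of the EMI domain family, which share that module with Egfem1, 0 of 15 rose and 5 fell, with Emilin3 (-2.30, edgeR adjusted p = 0.00137), Pear1 (-1.23, edgeR adjusted p = 0.00154) and Mmrn2 (-1.20, edgeR adjusted p = 0.0290) the largest. Over olfactory nerve, no tested gene of these last 2 families was called higher in “outer ONL”, nor was one of the myosin binding protein family. Over trigeminal nerve, 2 of 4 phospholipase, 1 of 3 myosin binding protein and 0 of 15 EMI domain genes were called higher. Called lower there were 0, 1 and 10, respectively. Over “inner ONL”, 9 of 15 EMI domain genes were called higher and 1 lower. Of the 7 genes of otoconia and their membranes, 2 were called higher and 2 lower over trigeminal nerve. Over “inner ONL”, 1 of the 7 was called higher and 1 lower, Atp2b2 (-3.40, edgeR adjusted p = 0.00197). The share of all genes called was not counted for these contrasts.

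The ONL genes of OECs rose in “outer ONL” for 7 of 9 genes, with a median of 3.64. Per the study, Npy, Prss56 and Frzb were markers known from earlier work. It chose the other genes of the list on these samples, so those are no independent evidence of direction. Ptgds (5.87, edgeR adjusted p = 8.77e-09), Npy (5.64, edgeR adjusted p = 3.75e-09) and Vtn (5.10, edgeR adjusted p = 4.90e-05) were the largest, and Egfem1 and Mybpc1 exceeded all 9 in this contrast. Of 8 glial genes 5 rose and none fell, with a median of 1.37. Fabp7 (3.56, edgeR adjusted p = 9.54e-10) rose most, and Sox10 rose by 2.36 (edgeR adjusted p = 1.32e-07). All 3 members exceeded each of these glial genes. Since the members were picked for their excess in “outer ONL”, nothing is read from how they stand against either list.

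Markers of other cells that the pieces could hold were counted in the same contrast. Markers of the olfactory epithelium fell for 8 of 10 genes (median -4.63), led by Cyp2g1 (-8.62), Sec14l3 (-8.30) and Krt5 (-8.23). Those of meninges and mesenchyme fell for 6 of 12 (median -0.95), with Twist1 at -2.02 and Crabp2 at -2.02, while Slc6a13 rose by 4.80. Bulb neuron markers rose for 4 of 9 and fell for 2 (median 2.21), with Dlx1 at 4.02, Gad1 at 2.95 and Eomes at 2.89. Those that fell were Dlx5 at -2.70, named after its value was seen, and Reln, the most abundant, at -1.16. The summed level of the list was 16.4 to 172 CPM in “outer ONL” (median 76.6) and 117 to 208 in olfactory nerve (median 141). Choroid plexus markers, a tissue that shares Enpp2 and Slc transporters with other barrier cells, rose for 2 of 9 and fell for 2 (median -0.08). Of these, Otx2 was at -4.95, Kcnj13 at -2.66, Ttr at 2.21 and Enpp2, the most abundant with 909 CPM in “outer ONL”, at 1.86. Central astroglial markers rose for 2 of 6 and fell for 1 (median 0.97), with Slc1a3 at 3.60, Gfap at -2.97 and Slc1a2 at 1.72. Of 5 endothelial markers 1 fell (Pecam1, -1.14, median -0.36) and of 4 macrophage markers 1 fell (Ptprc, -1.90, median -0.89). The part of these cells in the levels of the members was not tested.

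**Figure D4:**
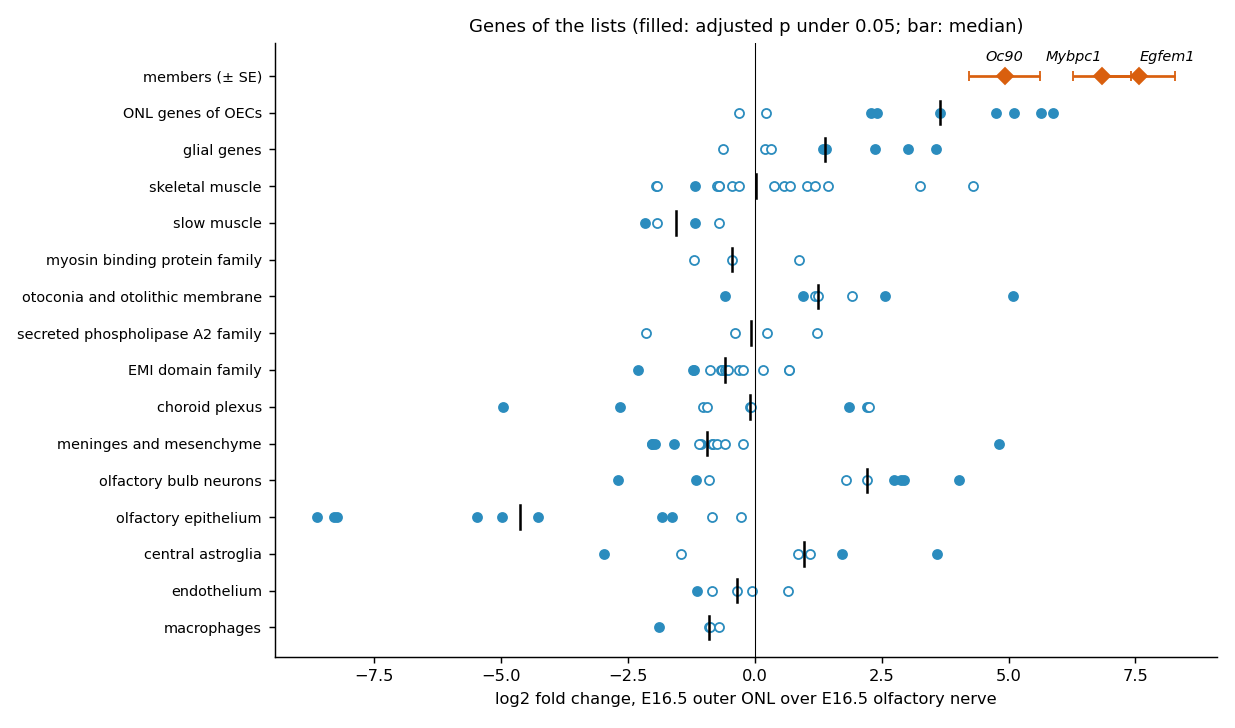
Log2 fold changes of “outer ONL” over olfactory nerve at E16.5 for the 3 members (diamonds, ± SE) and for the tested genes of each list (circles, filled where the adjusted p was under 0.05), with the median of each list as a bar. The members lie at 4.93, 6.84 and 7.57, to the right of the medians of all lists, of which the ONL genes of OECs have the highest at 3.64. The members were picked for a large excess in “outer ONL”, so nothing is read from their place.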

How the data were processed

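The values used here are the deposited raw counts of reads per gene, which the authors made by checking reads with FastQC, aligning them to the mm10 genome with TopHat2 (version 2.1.0) and counting them with HTSeq. Submitters' processing notes also name DESeq and DESeq2. The table lists 47729 Ensembl genes, of which 33331 had at least 1 count and 47224 were given a symbol from GENCODE M21 (GRCm38). The row without a gene name was left out. No strand setting of the counting is given in the sources used here. Total counts ranged from 3512627 to 36705535, and the smallest libraries carry the largest counting error.

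The 31 libraries entered 1 edgeR fit (version 4.0.16, R 4.3.3) with a coefficient for each of 7 groups, TMM scaling and filterByExpr, which kept 19332 genes. The quasi-likelihood test was adjusted over all of these by the Benjamini-Hochberg method, with calls at an adjusted p under 0.05. Standard errors were taken as the absolute log2 fold change over the square root of F. Correlations and plots used log2(CPM + 0.5). The procedure was tested on simulated data. Groups before E16.5 followed the selection rule, since the means of the study's own table were matched by that grouping with a median difference of 0.0001% in each group, against 3.28% to 28.9% under the labels. The labels tie no library to an embryo. Per the study, the olfactory nerve, ONL and trigeminal pieces of E16.5 were cut from the same sections, so these groups share embryos. It also states that the libraries within each E16.5 group came from different embryos, while several early libraries shared an embryo. The p-values before E16.5 therefore measure a spread between libraries that may be technical in part.

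The members, the lists and the tests were chosen with earlier results of these data known. Named genes were the members, Sox10, the 5 genes most correlated with each member, the genes overlapping or next to them, those ranked just before and after them by fold change, and up to 3 called genes per list plus its most abundant gene. Some genes that the rule names are not reported here. Alternatives were other scaling, filters and fits, DESeq2 (version 1.42.0), grouping by label, a replicate block and leaving out each library.

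Replicate numbers are shared by the E16.5 groups. Over 12234 genes, deviations from the group mean correlated by 0.232 to 0.466 between olfactory nerve and “outer ONL” libraries of the same number. Between those of different numbers they correlated by -0.351 to 0.359. These ranges overlap, so the values alone do not settle whether the numbers mark pairs. The fit reported has no block, so its tests between E16.5 groups treat groups that share embryos as independent. A replicate block was run as an alternative for the fold changes of the members and not for the lists. The other pairs of groups had at least 1 same-numbered correlation at or below 0.1.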

Additional observations from a re-analysis of the deposited data

Results flagged for a closer look

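Of 18 combinations of a member and a group of 4 to 7 libraries examined for a single library far from the rest, 3 stood apart by Dixon's criterion, and chance alone sets apart about 1 in 20. The library labelled E13.5 ONL replicate 5, placed in E11.5 olfactory nerve, had 0.970 CPM of Oc90 (30 counts) where the other 3 had 0. The same library had 8.08 CPM of Egfem1 (250 counts), above 1.27 to 1.98 CPM in the others. In E13.5 olfactory nerve, replicate 3 had 1.04 CPM of Egfem1, which rests on 6 counts, against 0 to 0.243 CPM in the other 6 libraries.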

How the results depend on the processing

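Of 60 alternative values of the E16.5 fold changes of the members, all 60 kept their direction and moved by less than the spread between replicates. In the replicate block the values of “outer ONL” over olfactory nerve were 4.76 for Oc90, 7.55 for Egfem1 and 6.90 for Mybpc1, and the block changed no other direction. Leaving out single libraries left 90 of 93 values in place. The exceptions were Egfem1 over olfactory nerve without its replicate 2, in “outer ONL” (range over libraries 7.17 to 8.88) and in “inner ONL” (7.55 to 9.27), and Oc90 over trigeminal nerve without its replicate 2 (11.04 to 13.13).

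Grouping by label changed most. The number of genes called was 3421 instead of 6087 between E13.5 ONL and E13.5 nerve and 3380 instead of 7071 between E13.5 and E11.5 nerve. The log2 fold changes of Oc90, Egfem1 and Mybpc1 were -2.64, 0.14 and -3.05 in E13.5 ONL over E13.5 nerve, -3.60, -1.59 and -5.59 in E13.5 ONL over E11.5 nerve, and -0.96, -1.73 and -2.54 in E13.5 over E11.5 nerve. List genes called, which also rest on the shared fit, numbered 35 instead of 53 for “outer ONL” against olfactory nerve and 29 instead of 45 against “inner ONL”, an alternative chosen after seeing the data.

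DESeq2 gave 1.51 for Oc90 in E13.5 ONL over E13.5 nerve (adjusted p = 0.0689). A fit of the groups alone gave 4549 genes instead of 7037 for E13.5 ONL against E11.5 nerve, with Egfem1 at 1.50 (edgeR adjusted p = 0.0624), and 2.86 for Oc90 in E13.5 over E11.5 nerve (edgeR adjusted p = 0.0599). Leaving out single libraries gave 1.31 to 1.73 for Oc90 in E13.5 ONL over E13.5 nerve, 1.25 to 2.48 for Egfem1 in E13.5 ONL over E11.5 nerve and -1.27 to 0.41 for Mybpc1 in E13.5 over E11.5 nerve. The other 89 of 96 such values kept their call. The causes were not tested.

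Of the 5 genes most like each member, 0, 0 and 1 were shared for Oc90, Egfem1 and Mybpc1 when only the 15 E16.5 libraries were used, and 3, 2 and 1 with Spearman's coefficient. Against the glial sum in place of Sox10, the log2 ratio of E13.5 ONL over E11.5 nerve was -1.52 instead of 2.77 for Egfem1, and that of Oc90 over E13.5 nerve -1.63 instead of 0.13. Scaling by total counts moved the median of all genes in “outer ONL” over olfactory nerve from 0.01 to -0.13 and over trigeminal nerve from 0.01 to 0.13. Counts of 0 to 30 limit Oc90 in trigeminal and E11.5 nerve and Egfem1 in olfactory nerve.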
